A study of Mus musculus with 108 samples.

Results

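The regions described here are stretches of the mouse liver genome that were in quiescent chromatin in both standard diet (SD) groups and in active enhancer chromatin in mice under caloric restriction (CR). They were chosen from the deposited chromatin states themselves. A 200 bp bin on chromosomes 1 to 19 was a member when it was quiescent (state 8) in SD 3m as well as SD 12m and in an active enhancer state (state 3 or state 4) in CR 12m, and touching member bins were joined. The rule found 102072 bins of the 12313718 autosomal bins, which formed 9988 stretches and 20.4 Mb. The state labels of the members are therefore what selected them and are given below as description only. "Gained" means here that the label of a bin differed between groups of different mice, not that a change was followed in the same animals.

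Histone marks were immunoprecipitated from the livers of 31 C57BL/6 females, which had been fixed in formalin and embedded in paraffin, to give 108 libraries. SD 3m comprised 8 mice aged 3 months, with 7 H3K4me3, 7 H3K27me3, 8 H3K27ac and 8 H3K4me1 libraries. SD 12m comprised 8 mice aged 12 months on the same diet (8, 8, 7 and 6 libraries in that order). CR 12m comprised 9 mice of 12 months whose calories were cut by 30% from the age of 3 months (5, 6, 9 and 9 libraries). SD 6m (6 mice, 20 libraries) was not analysed here. No group carried an engineered allele according to the labels. All libraries of a group were merged before states were assigned, so each group has 1 segmentation, no replicate of it exists, and no difference between groups could be set against the spread between mice. The labels do not give the read depth behind them, and depth was not analysed here. CR 12m merged more libraries for H3K27ac and H3K4me1 than SD 12m and fewer for H3K4me3 and H3K27me3, and the part of these numbers in the gains was not tested. Percentages over bins are given with Wilson 95% limits where they carry a statement, which cover counting only and treat neighbouring bins as independent, and with their range over the 19 autosomes.

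Enhancers are stretches of DNA, often far from the gene they act on, where transcription factors bind and raise transcription. Their nucleosomes carry H3K4me1 when the site is marked and H3K27ac when it is in use, and the H3K27ac of liver enhancers is known to move with feeding, fasting and the time of day. ChromHMM, the program used by the study, turns such marks into a small number of recurring combinations. State 3, named active enhancer (1), has strong H3K27ac together with H3K4me1. State 4, active enhancer (2), has moderate H3K27ac and little H3K4me1, state 5 is the poised enhancer with H3K4me1, and state 8 has almost no signal of any mark. The paper also describes states 4 and 5 as weak and poised signatures, more enriched for enhancers used in embryonic liver alone. It reports known enhancers of adult liver as enriched in state 3.

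To show what such DNA looks like, the bin with the most matches to 10 short motifs is printed for each of the 5 longest stretches, from the GRCm38.p6 (mm10) sequence. Capitals mark the matches. The letters searched on both strands were TGTTTAC (FOXA), CAAAGTCCA (HNF4A), AGGTCA (nuclear receptor half-site), TTGCNNAA (CEBP), TTAATNATT (HNF1), ACANNNTGT (glucocorticoid receptor), TTCNNNGAA (STAT), TGACGTCA (CREB), CACGTG (E-box) and TGANTCA (AP-1). The half-site is also part of longer nuclear receptor sites, and TGACGTCA and TGANTCA share their outer letters.
Esrrg stretch, chr1:187787401-187787600, plus strand: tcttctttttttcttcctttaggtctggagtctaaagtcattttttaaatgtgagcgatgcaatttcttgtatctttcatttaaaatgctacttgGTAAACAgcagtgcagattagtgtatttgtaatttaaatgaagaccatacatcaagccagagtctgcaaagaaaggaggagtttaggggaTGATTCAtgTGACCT
Gm28867 stretch, chr1:118350001-118350200, plus strand: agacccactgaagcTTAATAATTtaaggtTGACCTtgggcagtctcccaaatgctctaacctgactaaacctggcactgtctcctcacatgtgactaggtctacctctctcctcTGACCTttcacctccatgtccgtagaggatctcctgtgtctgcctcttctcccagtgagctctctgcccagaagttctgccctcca
Mir8110 stretch, chr8:88950001-88950200, plus strand: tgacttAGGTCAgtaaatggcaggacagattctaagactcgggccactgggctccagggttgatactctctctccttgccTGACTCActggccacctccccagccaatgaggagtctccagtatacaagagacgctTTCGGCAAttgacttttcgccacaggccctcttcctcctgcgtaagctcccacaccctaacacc
Cadm1 stretch, chr9:47356801-47357000, plus strand: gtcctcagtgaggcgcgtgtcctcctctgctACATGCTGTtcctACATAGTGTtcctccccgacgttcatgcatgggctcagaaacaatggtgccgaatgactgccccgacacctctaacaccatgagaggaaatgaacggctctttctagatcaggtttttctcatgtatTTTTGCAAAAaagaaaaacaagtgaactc
Sult2a5 stretch, chr7:13641801-13642000, plus strand: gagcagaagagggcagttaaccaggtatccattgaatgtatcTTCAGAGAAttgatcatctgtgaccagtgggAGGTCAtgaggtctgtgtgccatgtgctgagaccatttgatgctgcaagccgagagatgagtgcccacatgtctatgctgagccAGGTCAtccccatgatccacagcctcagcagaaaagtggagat

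The Esrrg bin lies in an intron of Esrrg, the Sult2a5 bin in an intron of Sult2a5, and the other 3 bins lie between genes. As the rule requires, all 5 bins were quiescent in both SD groups. In CR 12m the Gm28867 bin was in state 3 and the other 4 were in state 4. The Esrrg bin held a FOXA, a half-site and an AP-1 match, the Gm28867 bin an HNF1 and 2 half-site matches, and the Mir8110 bin a half-site, a CEBP and an AP-1 match. The Cadm1 bin held 2 glucocorticoid receptor and 2 overlapping CEBP matches, and the Sult2a5 bin a STAT match and 2 half-site matches. These bins were chosen for their matches, which are a description of letters and not of bound factors.

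The label active enhancer covered almost entirely one kind of chromatin. Of the member bins, 99986 (98.0%, 97.9 to 98.0) were in state 4 in CR 12m and 2086 were in state 3, and the share in state 4 ranged from 95.6% on chromosome 1 to 99.6% on chromosome 3. Over all autosomal bins that CR 12m placed in states 3 and 4, the share in state 4 was 40.9%. The members thus carried the combination with moderate H3K27ac and little H3K4me1, and the fully marked state 3 was rare among them. Bins in state 3 occurred in 521 stretches (5.22%), whose median length was 2600 bp against 1400 bp for stretches without one. A longer stretch has more bins that could be in state 3, so these lengths are description. The 10 longest of the 9988 stretches held 213 of the 2086 state 3 bins (10.2%), of which 96 lay in the second longest. The bins gained in SD 12m only, which were in state 8 in SD 3m and CR 12m and in state 3 or 4 in SD 12m, held 27 bins in state 3 among 60523. The bins gained in both 12-month groups were in state 4 in CR 12m in 94.6%.

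Members made up 1.79% (1.78 to 1.80) of the 5695598 autosomal bins that were quiescent in both SD groups and 3.96% of the 2580109 bins that CR 12m placed in states 3 and 4. Without bins within 1 kb of a bin in state 3, 4 or 5 in either SD group, the first share was 0.988%. Of 236268 bins that went from state 8 in SD 3m to state 3 or 4 in CR 12m, 53.1% were in state 4 in SD 12m too and 43.2% were still quiescent there and are the members. The rule also left out 7082 (3.00%) in the poised state 5 in SD 12m and 333 in the Polycomb state 6. A further 1039 (0.440%) were in state 3 in SD 12m and, like those in state 4, belong to the bins gained in both 12-month groups. 

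The opposite set was smaller. Bins gained in SD 12m only made up 60523 bins in 7676 stretches (12.1 Mb), 0.885% of the bins quiescent in SD 3m and CR 12m, so that the bases gained in CR 12m only were 1.69 times as many (Wilson limits 1.67 to 1.70). Bins gained in both groups numbered 126550 in 12293 stretches (25.3 Mb). These sets share the SD 3m segmentation, and an error in it counts in all of them. SD 12m had 2508739 autosomal bins in states 3 and 4 in all, fewer than the 2580109 of CR 12m, and more bins in state 4 (1208957 against 1054278). The part of these totals in the gains was not tested.

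The excess over SD 12m was uneven along the genome. On 17 of 19 autosomes CR 12m had more bins gained alone than SD 12m had. The ratio was highest on chromosome 7, with 9628 bins against 2772 (3.47), followed by chromosome 4 with 8093 against 2592 (3.12), and it was below 1 on chromosome 3 (2995 against 4892, 0.612) and chromosome 10 (4190 against 5358, 0.782). The member share of the quiescent bins ranged from 0.829% on chromosome 3 to 2.69% on chromosome 9 with a median of 1.70%. The share of bins gained in SD 12m only ranged from 0.491% on chromosome 14 to 1.44% on chromosome 10.

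**Figure D1:**
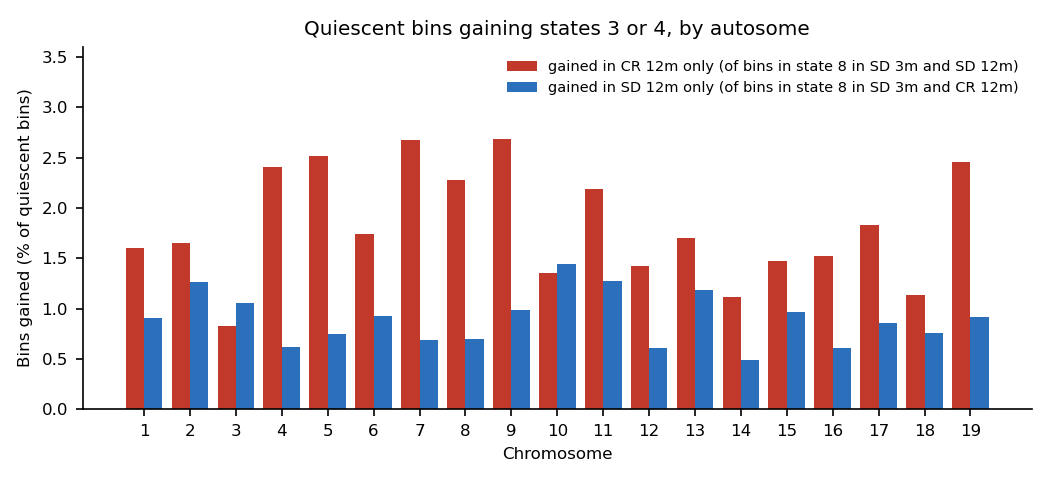
Percent of quiescent bins that gained state 3 or 4 in CR 12m only (red) or SD 12m only (blue), for each autosome on the x axis; the y axis starts at 0 and each bar is 1 value from 1 segmentation. The red bar is taller on all autosomes but 3 and 10, and tallest on chromosome 9 at 2.69%.

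The stretches were short. Their median length was 1600 bp (quartiles 600 and 2800 bp), 1249 of them (12.5%) were a single bin, 6555 (65.6%) reached 1 kb and 760 reached 5 kb. Stretches of 1 kb or more held 92.6% of the member bases, and 106 stretches reached 10 kb, the longest 31.6 kb. The stretches gained in SD 12m only had a median of 1000 bp, with 316 of at least 5 kb and 31 of at least 10 kb, and the median was longer in CR 12m on 18 of 19 autosomes. Stretches gained in both groups had the same median as the members, 1600 bp.

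**Figure D2:**
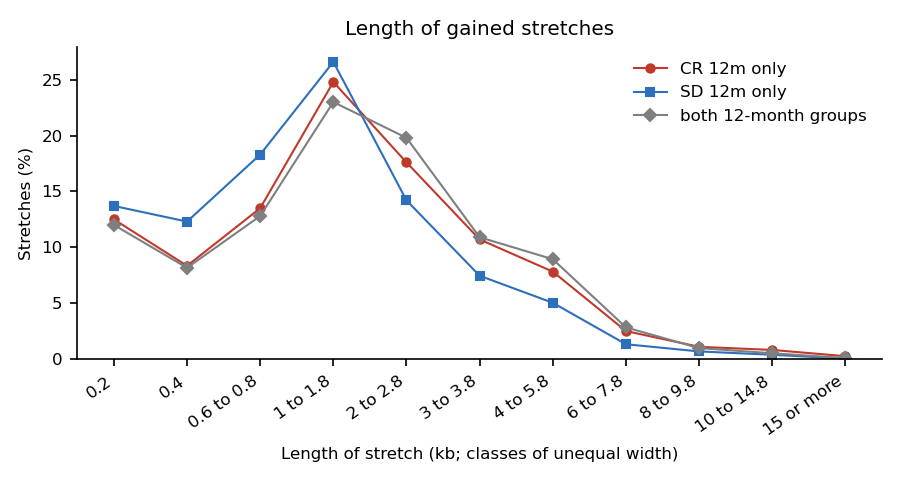
Percent of stretches (y axis) in classes of length in kb (x axis, classes of unequal width) for stretches gained in CR 12m only (9988), SD 12m only (7676) and both 12-month groups (12293). The red line of CR 12m only runs close to the grey line of both groups and lies below the blue line up to 1.8 kb and above it from 2 kb on.

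Most member bins lay in runs of enhancer chromatin that also held bins marked in SD 3m, and few made up a run of their own. Each stretch was placed inside the unbroken run of states 3 and 4 of CR 12m that holds it. Of 7834 such runs, 6464 (82.5%) also held a bin that was in states 1 to 5 in SD 3m, and these runs carried 86.1% of the member bins, had a mean length of 19200 bp and consisted of members to 14.2%. A further 343 runs (4.38%) held a bin in states 1 to 5 in SD 12m but not in SD 3m. Runs made of members alone numbered 987 (12.6%) with 9.08% of the member bins. These wholly new runs had a median length of 1200 bp, 323 of them reached 2 kb and 77 reached 5 kb.

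In SD 12m, 6088 stretches (61.0%, 60 to 61.9) had a neighbouring bin in state 3, 4 or 5, of which 1127 had one on both sides. The range over autosomes was 54.1 to 67.7%. Of the stretches gained in SD 12m only, 46.4% had such a neighbour in CR 12m, and the percentage was lower than that of the members on 19 of 19 autosomes. Of the bins next to a member stretch, 29.4% were in state 4 in SD 12m, 6.70% in state 5 and 0.0150% in state 3, while 63.4% were quiescent. In SD 3m, 51.9% of the member stretches had a neighbour in state 3, 4 or 5. At a distance of 5 kb from the edge, states 3 and 4 made up 54.1% of the bins of CR 12m, with 38.8% for SD 12m and 30.4% for SD 3m. Members of other stretches were not left out of these flanks, and the rule places them in states 3 and 4 in CR 12m only. The flanking percentages therefore lend no support to a difference between groups. In what follows, 3 values given in a row belong to SD 3m, SD 12m and CR 12m, always in this order. Kilobases in states 3 and 4 near a named gene include its members, which the rule places in CR 12m and in neither SD group, so they describe the locus and lend no support to a difference between groups.

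**Figure D3:**
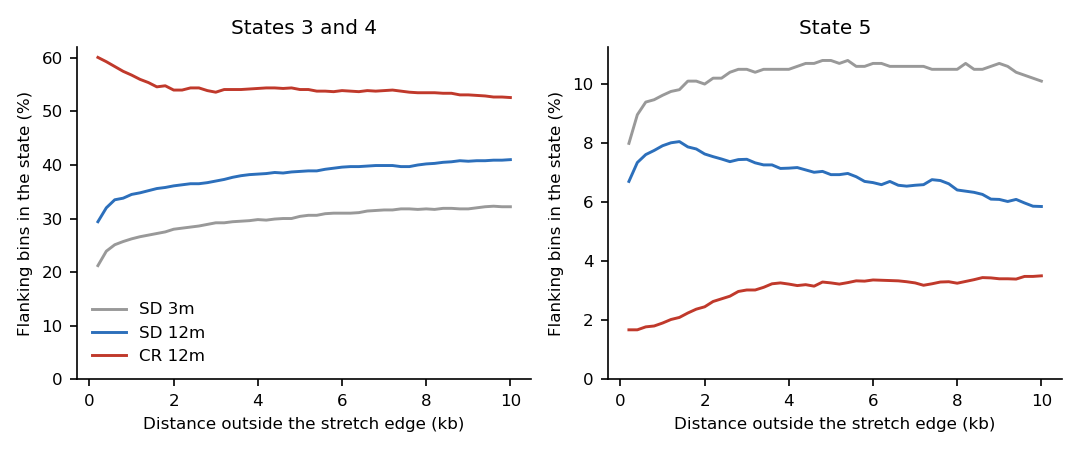
Percent of flanking bins in states 3 and 4 (left) and in state 5 (right) against the distance outside the edge of the 9988 member stretches in kb, both sides pooled, in SD 3m, SD 12m and CR 12m. States 3 and 4 reach 60.1% in CR 12m at the first bin and run downward outwards, while in SD 12m they run upward from 29.4% to 41.0% at 10 kb, and state 5 lies lowest in CR 12m at every distance. Members of other stretches were not left out of the flanks.

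Seen from the existing enhancers, 28.8% of member bins lay within 1 kb of a bin in state 3, 4 or 5 in SD 3m, 79.7% within 5 kb and 98.1% within 50 kb. Over all bins quiescent in both SD groups these shares were 2.83%, 11.3% and 37.6%. For state 3 of SD 3m alone, which cannot give higher shares as it is part of these states, 1.20% of member bins lay within 1 kb and 47.2% within 10 kb. These shares were 0.0858% and 5.10% for bins quiescent in both SD groups. They were 0.745% and 44.2% for bins gained in SD 12m only, and 3.13% and 70.7% for bins gained in both groups. Bins gained in SD 12m only lay within 5 kb of a bin in state 3, 4 or 5 in SD 3m in 83.1% and those gained in both groups in 94.9%.

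The longest stretch (31.6 kb, chr1:187776801-187808400) lay in Esrrg, which encodes an orphan nuclear receptor that drives genes of mitochondrial energy metabolism. Its bins were in state 4 in 150 and in state 3 in 8 of 158 cases, it overlapped 88 exonic bases and was otherwise intronic. In SD 3m it was bounded by state 4 on both sides and in SD 12m by state 5 and state 8. The TSS of Esrrg, 183 kb away from the middle of the stretch, was in state 5 (poised) in both SD groups and in state 1 (active TSS) in CR 12m. In all, 59.2 kb of members in 7 stretches were nearest the Esrrg TSS, and of the 397 kb nearest to it 60.4, 60.4 and 148 kb were in states 3 and 4 in the 3 groups.

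The second longest stretch (30.8 kb, chr1:118339801-118370600) was the one richest in state 3, with 96 of 154 bins. It covered Gm28867, a long non-coding RNA gene without a known role, whose TSS bin was itself a member. The third (23.8 kb, chr8:88947201-88971000) lay between genes, 65.6 kb upstream of the microRNA gene Mir8110, and was in state 4 throughout. The fourth (23.4 kb, chr9:47335001-47358400) lay between genes 183 kb upstream of Cadm1, a cell adhesion molecule, and had state 4 on both sides in SD 12m and state 8 on both sides in SD 3m. The fifth (21.4 kb, chr7:13639001-13660400) lay in introns of Sult2a5, one of a cluster of sulfotransferases that conjugate steroids and bile acids, and had the poised state 5 on both sides in SD 12m. The placing of reads among the Sult2a paralogs was not tested, so states in this cluster are uncertain.

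Of the other 5, the sixth overlapped Rec114 (20.6 kb), a gene of meiotic recombination, and the eighth Rbm19 (19.8 kb), which acts in ribosome biogenesis. The ninth (19.6 kb, chr8:12996201-13015800) lay in Mcf2l with 20.1 kb from its middle to the TSS of F7, which encodes coagulation factor VII. The tenth (18.8 kb) lay in Sorcs2 with Psapl1 as the nearest TSS. The seventh (19.8 kb, chr5:119460801-119480600) lay between genes near Gm31314 and differed from the others in its surroundings. All 50 bins within 5 kb outside it were quiescent in SD 3m and SD 12m. The 18 of them in states 3 and 4 in CR 12m are thus members of other stretches by the rule. Among the remaining 9, the number of such neighbouring bins in states 3 and 4 in SD 12m ranged from 3 for Psapl1 to 50 for Cadm1.

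**Figure D4:**
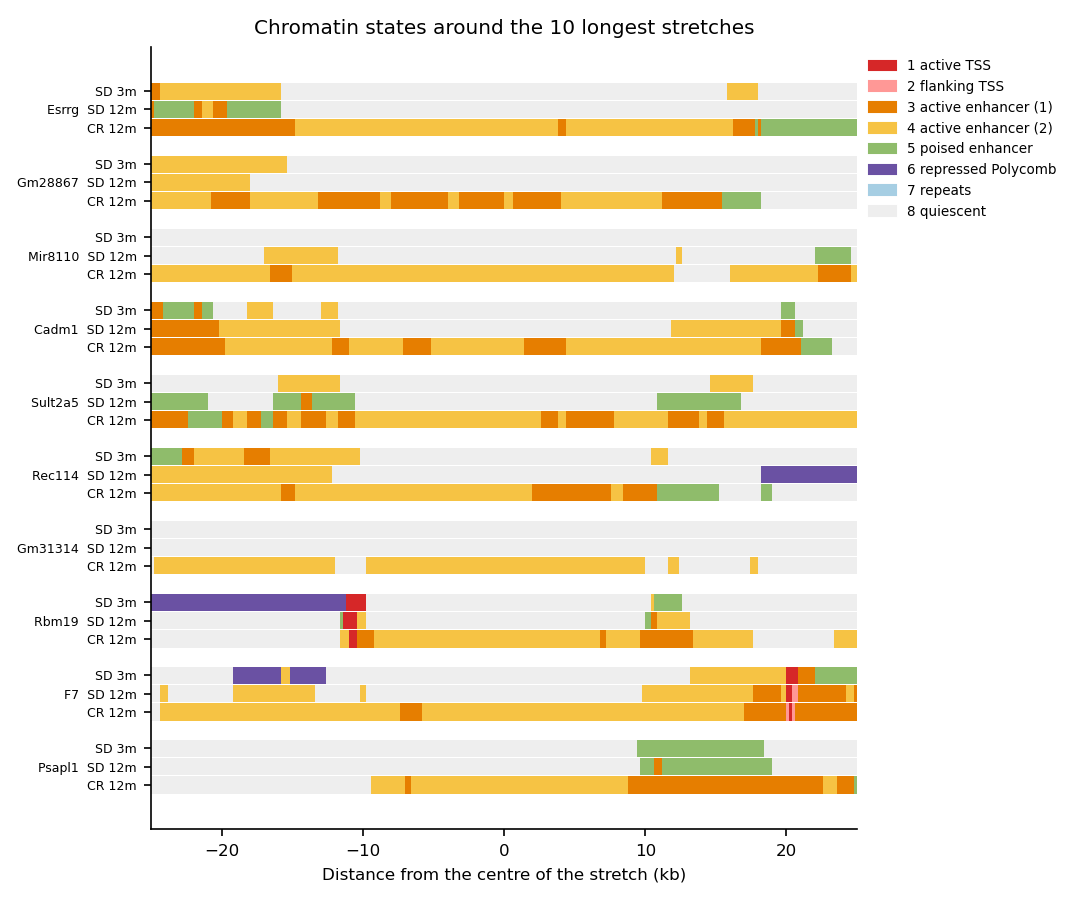
Chromatin state of each 200 bp bin in SD 3m, SD 12m and CR 12m within 25 kb of the centre of the 10 longest member stretches, each named by its nearest TSS gene, with the x axis in kb from the centre. The centres are quiescent (light grey) in both SD groups and in state 4 (yellow) or 3 (orange) in CR 12m, and the surroundings of the Gm31314 stretch are quiescent in both SD groups.

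Members lay mostly away from promoters and inside genes. The bin centre was within 2 kb of the TSS of the longest curated RefSeq transcript of a gene in 3.73% (3.62 to 3.85) of members, against 1.56% of all bins quiescent in both SD groups. The share was 3.67% over all autosomal bins, 5.71% over bins in state 4 in CR 12m and 5.11% over bins in states 3 and 4 in all 3 groups. The median distance was 23.0 kb, with 50.4% between 10 and 50 kb and 12.0% beyond 100 kb. By the bin centre 8.97% were exonic, 54.8% intronic and 36.2% intergenic, whereas the quiescent bins were exonic in 1.97% and intergenic in 65.7%. Bins in states 3 and 4 in all 3 groups were 4.99% exonic, 59.8% intronic and 35.2% intergenic. For bins gained in both groups these shares were 10.2%, 50.9% and 39.0%, so a place inside genes was not particular to the members. Bins gained in SD 12m only were further out than the members, with a median of 30.5 kb, 4.55% exonic and 52.7% intergenic. The exonic share was higher and the intergenic share lower for CR 12m on 19 of 19 autosomes, and the share within 2 kb of a TSS was higher on 14. Bins gained in both groups lay closest, with a median of 17.5 kb.

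The DNA of the members was rich in G and C. Their GC content was 46.6%, with a range from 44.4 to 48.5% over autosomes, compared to 41.3% for bins quiescent in both SD groups and 44.0% for bins in states 3 and 4 in all 3 groups. It was above that of the quiescent bins on 19 of 19 autosomes and above that of bins gained in SD 12m only (44.5%) on 18. CpG dinucleotides numbered 11.6 per kb against 7.62 in quiescent bins. Bases marked as repeats in the reference made up 26.4% against 38.8%. Bins gained in both groups were still richer, with 47.8% GC and 12.5 CpG per kb, and exceeded the members in GC on 19 of 19 autosomes.

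The same gradient appeared over windows. When 2390 windows of 1 Mb were sorted by GC into 5 classes, the member share of the quiescent bins was 0.179% in the lowest class (35.7 to 38.5% GC), then 0.625%, 1.54% and 3.21%, and 7.0% in the highest (45.0 to 53.7%). The share gained in SD 12m only was 0.0841% in the lowest and 2.81% in the highest class. The ratio of bases gained in CR 12m only to SD 12m only was 2.44 in the highest class and lay between 1.20 and 1.49 in the other 4. Within a chromosome, the ratio was higher in the windows above the median GC than in those below it on 11 of 19 autosomes. GC content is known to affect the recovery of fragments in library preparation, and its part in the gains was not tested.

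Some motifs were more and some less frequent in the members than in the bins in states 3 and 4 in all 3 groups. For each motif the range over autosomes in the members covered the value of those bins. Bins gained in both 12-month groups held AGGTCA in 13.4%, CACGTG in 3.08%, TGACGTCA in 0.166%, TGTTTAC in 2.27% and TTAATNATT in 0.764%. For these motifs the differences below were therefore not particular to the members. AGGTCA was present in 12.9% of the member bins, 12.7% of the bins in states 3 and 4 in all 3 groups and 11.1% of all autosomal bins. The E-box CACGTG was present in 2.93%, 2.62% and 1.99%, and TGACGTCA in 0.150%, 0.125% and 0.111%. TGTTTAC was less frequent in the members (2.48%) than in the bins in states 3 and 4 in all groups (2.99%) and in all bins (2.98%). TTAATNATT was present in 0.972% of the members, 1.34% of the bins in states 3 and 4 in all groups and 1.67% of all bins. CAAAGTCCA was present in 0.280%, 0.300% and 0.257%, and its percentage over autosomes ranged from 0.133 to 0.383 in the members, which covers the other values. TTGCNNAA and TTCNNNGAA were present in 7.51% and 5.90% of the members, 8.04% and 6.10% of the bins in states 3 and 4 in all groups, and 9.28% and 7.36% of all bins. ACANNNTGT and TGANTCA were present in 6.48% and 5.47% of the members, 6.71% and 6.08% of the bins in states 3 and 4 in all groups, and 6.58% and 5.96% of all bins. The less frequent motifs are made mainly of A and T and the more frequent ones mainly of G and C or of both, and base composition was not adjusted for.

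Each member bin was assigned to the nearest TSS, which does not show that it acts on that gene. Of 24963 autosomal genes, 5507 (22.1%) had at least 1 member bin nearest their TSS and 3106 (12.4%) had at least 2 kb. At least 2 kb gained in SD 12m only was nearest to 1811 genes (7.25%). The TSS of genes with 2 kb of members were in states 1 to 5 in SD 3m in 69.9%, against 59.9% of all autosomal genes. Among the 14958 genes with a TSS in states 1 to 5 in SD 3m, 14.5% had 2 kb of members and 8.86% had 2 kb gained in SD 12m only. When at least 20% of the assigned bins were required to be in states 3 and 4 in SD 3m as well, these values were 13.3% and 7.75% of 11065 genes.

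The gene with the most member bases was Sall1, a zinc finger transcription factor of organ development (GeneID 58198, chr8:89027242-89044162). It had 114 kb in 27 stretches, the nearest 14.3 kb from its TSS, and no base gained in SD 12m only. Its TSS was in state 1 in all 3 groups. Of the 653 kb nearest to it, 195, 252 and 391 kb were in states 3 and 4. Mir8110, a microRNA gene in the same region of chromosome 8, came next after Ppargc1a with 67.8 kb in 11 stretches. Genes ranked this way were chosen for their member bases, so a lack of bases gained in SD 12m only near them is description.

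Ppargc1a encodes PGC-1α, the coactivator of mitochondrial biogenesis, fatty acid oxidation and gluconeogenesis in fasting liver (GeneID 19017, chr5:51454249-52115853). It ranked second of all genes with 68.2 kb in 16 stretches, and no base nearest to it was gained in SD 12m only. Bases in states 3 and 4 among the 796 kb nearest its TSS came to 66.8, 85.8 and 191 kb. Its TSS bin was quiescent in both SD groups and in state 4 in CR 12m, inside a member stretch of 2400 bp (chr5:51566001-51568400). This TSS (chr5:51567725) is the start of the longest curated transcript and lies inside the annotated gene, which is on the minus strand. Its bin did not reach state 1 in any of these groups. Other starts of Ppargc1a were not read, so their states are not given here.

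Aqp7 encodes the glycerol channel aquaglyceroporin 7 and was 1 of 193 genes whose own TSS bin was a member, as was Ppargc1a. The stretch over the Aqp7 TSS measured 17.8 kb (chr4:41033001-41050800). Of the 52.2 kb nearest that TSS, 9.6, 7.0 and 42.4 kb were in states 3 and 4. The RefSeq promoter sequences at these TSS of both genes lie wholly in member bins and are shown for that reason. They run from 250 bases before to 50 after the TSS (GRCm38.p6) and are read on the minus strand of the genome.
Ppargc1a promoter, chr5:51567676-51567975, minus strand: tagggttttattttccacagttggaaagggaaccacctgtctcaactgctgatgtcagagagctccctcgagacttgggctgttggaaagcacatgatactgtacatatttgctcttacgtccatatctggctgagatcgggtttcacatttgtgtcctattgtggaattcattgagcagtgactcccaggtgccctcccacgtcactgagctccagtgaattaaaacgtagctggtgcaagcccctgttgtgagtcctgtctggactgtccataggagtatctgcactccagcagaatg
Aqp7 promoter, chr4:41048087-41048386, minus strand: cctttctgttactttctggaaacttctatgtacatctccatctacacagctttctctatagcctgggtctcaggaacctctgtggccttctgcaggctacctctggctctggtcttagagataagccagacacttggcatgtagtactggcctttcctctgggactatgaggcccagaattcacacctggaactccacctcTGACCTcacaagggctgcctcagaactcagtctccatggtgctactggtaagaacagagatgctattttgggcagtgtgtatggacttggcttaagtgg

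The Ppargc1a window held none of the 10 motifs as spelled above, which says only that these letters are not in these 300 bases. The Aqp7 window held 1 nuclear receptor half-site match, in capitals. Among 32851 RefSeq promoters of the same length, 16.3% held this half-site.

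The 193 TSS in member bins were led, apart from Aqp7, by the stretches over Gm28867 (30.8 kb), D7Ertd443e (18.4 kb), Sh2d7 (15600 bp), the matrix metalloproteinase gene Mmp21 (15000 bp), 4930515B02Rik (14600 bp) and the chemokine scavenging receptor gene Ackr4 (14200 bp). Gm36793 and the potassium channel subunit gene Kcnv2 followed with 11400 bp each and Nphs1os with 11000 bp. Of the 193, 133 were protein-coding (68.9%, against 80.2% of all autosomal genes) and 32 encoded microRNAs (16.6%, against 4.55%). A TSS in states 1 to 5 in SD 3m, as in 59.9% of all autosomal genes, could not be a member. Biotypes were not counted among genes with a quiescent TSS, so these shares are not set against the genes that the rule could choose. Among the 20 genes with the most member bases, the TSS bin was a member for Ppargc1a and for Gabbr2, a subunit of the GABA B receptor (38.0 kb).

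The remaining genes among these 20 had 35.6 to 56.0 kb each. They included enzymes, namely Sult2a6 (55.4 kb) and Sult2a5 (35.6 kb), the deoxyribose-phosphate aldolase gene Dera (40000 bp), and Rfk (39.0 kb), which encodes the riboflavin kinase that makes FMN. Pebp1 (43.2 kb) encodes an inhibitor of the Raf kinase pathway and Kank1 (41.4 kb) a cytoskeletal adaptor. Genes known mainly from the nervous system were Cacng3 (49.4 kb), Elfn1 (36.8 kb) and Robo1 (35.8 kb). The adhesion molecule gene Cadm1 had 37.2 kb, Lyrm1 had 45.6 kb, and the long non-coding RNA genes Gm7538, Gm31314, 9330162B11Rik and 4933400F21Rik had 56.0, 50.4, 45.6 and 38.8 kb. Cacng3 had its TSS in the Polycomb state 6 in both SD groups and in state 8 in CR 12m, so its surrounding enhancer states were not matched by an active TSS. The TSS of Robo1, which encodes a receptor of axon guidance, was in states 4, 8 and 1, and 74.4, 2.40 and 122 kb nearest to it were in states 3 and 4, so that the level was lowest in SD 12m.

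Members gathered in domains. Of the 2390 windows of 1 Mb, 757 (31.7%) held no member, the median held 16 bins, and the densest 239 windows held 46.5% of the members. The densest, chr5:119000001-120000000, had 660 member bins (132 kb) in 27 stretches, 0 bins gained in SD 12m only and 8 gained in both groups. The leading genes there were Gm7538, Gm31314, AW549542 (16400 bp) and the T-box transcription factor gene Tbx3 (4200 bp). The window with Sall1 and Mir8110 (chr8:89000001-90000000) followed with 571 member bins, 0 in SD 12m only and 363 in both groups. The third was the Sult2a cluster (chr7:14000001-15000000) with 566 bins, 0 and 140, where Sult2a6, Sult2a3 (32.2 kb), Sult2a8 (18200 bp) and Sult2a7 (4800 bp) lie, with the uncertainty of paralogs given above. The window of F7 (chr8:13000001-14000000) held 537 bins against 15 in SD 12m only and 263 in both, and also holds Tfdp1 (19600 bp), Mir7065 (18800 bp) and Pcid2 (15800 bp). The fifth, around Esrrg (chr1:187000001-188000000), held 508 bins against 26 and 63, and Gpatch2 there had 1200 bp. These windows were chosen for their member bins, and a bin gained in SD 12m only has to be quiescent in CR 12m. Their low numbers for SD 12m only are therefore description and lend no support to a difference between groups. Over all windows, 1140 had more bins gained in CR 12m only and 645 fewer.

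Lists of genes with known roles in liver were then read against the 12.4% of all autosomal genes with at least 2 kb of members and the 7.25% with at least 2 kb gained in SD 12m only. Enzymes of lipid, amino acid and drug metabolism had shares above the background for bins gained in CR 12m only and below it for bins gained in SD 12m only. A bin gained in SD 12m only has to be quiescent in CR 12m, and gains common to both groups count in neither share. The lower shares are therefore description and do not show that SD 12m gained little at these genes. The median over the genes of each list was 0 bp, as it was over all genes, except for 100 bp among cytochrome P450 and conjugation enzymes. Nearly all the metabolic genes had a TSS in states 1 to 5 in SD 3m (90.7 to 100%, against 59.9% of all genes), and 35.8 to 45.7% of their assigned bins were in states 3 and 4 in SD 3m against 16.6% of all bins. The part of this in their shares was not tested beyond the values of 14.5% and 13.3% given above. The lists could be matched to 27 to 86 genes each, and no test of a list was made.

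Of 86 cytochrome P450 and conjugation enzymes, which clear drugs, steroids and bile acids, 28 (32.6%) had at least 2 kb of members and 3 (3.49%) had at least 2 kb gained in SD 12m only. Members made up 20% of their bins that were quiescent in both SD groups, against 1.79% over the autosomes. The same measure was 13.4% for fatty acid oxidation, 9.88% for plasma proteins, 7.79% for lipid synthesis, 6.29% for gluconeogenesis and amino acids, 4.36% for hepatocyte transcription factors, 2.63% for the clock and 0.698% for the growth hormone and insulin axis. Bins with unassembled bases were not left out of this measure. The last value rests largely on Insr, which was assigned 3317 kb at the start of chromosome 8 and had a member share of 0.740%. It is therefore not to be read as a low share. Sult2a3 had 32.2 kb, Cyp3a41a 22.6 kb, Sult2a2 21.4 kb and Cyp2a5 18.4 kb. Bases in states 3 and 4 nearest the Cyp3a41a TSS came to 4.0, 25.8 and 66.6 kb. For Cyp2a5 they came to 9.80, 22.2 and 63.0 kb. For Sult2a2 they came to 0, 0 and 25 kb, of which 21.4 kb are members. These genes have close paralogs beside them, and how well reads could be placed among the copies was not tested, so values there are to be taken as uncertain.

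Among 44 genes of fatty acid and sterol synthesis, 15 (34.1%) had at least 2 kb of members and 0 had 2 kb gained in SD 12m only. The lanosterol synthase gene Lss had 9.80 kb, the acetyl-CoA carboxylase gene Acacb 9000 bp and the sterol demethylase gene Cyp51 8.60 kb. Of 41 genes of fatty acid oxidation and ketogenesis, 12 (29.3%) reached 2 kb in CR 12m only and 1 in SD 12m only. After Ppargc1a, the peroxisomal enzyme genes Hsd17b4 (23.6 kb) and Acaa1b (12.8 kb) and the enoyl-CoA isomerase gene Eci2 (9.60 kb) led this list. Both the synthesis and the oxidation of fatty acids thus had members at more of their genes than the background.

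Of 43 genes of gluconeogenesis, amino acid catabolism and the urea cycle, 13 (30.2%) reached 2 kb of members and 0 reached 2 kb in SD 12m only. The leading genes were Agxt2 (14.0 kb) and Prodh2 (10000 bp), mitochondrial enzymes of glyoxylate and hydroxyproline metabolism, Cth (9.40 kb), which makes cysteine, and Cps1 (8.20 kb), the entry enzyme of the urea cycle. For Prodh2, 22.6 of the 24.8 kb nearest its TSS were in states 3 and 4 in CR 12m, against 9.20 kb in SD 12m and 5.0 kb in SD 3m. Of 51 plasma protein genes, 11 (21.6%) reached 2 kb against 2 in SD 12m only. F7 had 22.0 kb, the alpha-1 antitrypsin genes Serpina1b and Serpina1a 14.4 and 10.2 kb, and the orosomucoid gene Orm1 10.2 kb. The Serpina1 genes are paralogs as well, with the same uncertainty.

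Regulators gave a mixed picture. Of 47 hepatocyte transcription factors and nuclear receptors, 12 (25.5%) reached 2 kb of members and 4 (8.51%) 2 kb in SD 12m only, led by Nr2f2 (31.4 kb), Prox1 (12.8 kb), Nr5a2 (9.80 kb) and Foxa1 (8.60 kb). The stretches of Nr2f2, an orphan nuclear receptor, began 279 kb from its TSS. Of 27 genes of the circadian clock, 6 (22.2%) and 3 (11.1%) did, led by Nfil3 (12.8 kb), Hlf (9.20 kb), Bhlhe41 (3.80 kb) and Per3 (3200 bp). Nfil3, a repressor of clock output, also had 9400 bp gained in SD 12m only. Of 32 genes of the growth hormone, IGF and insulin axis, 2 (6.25%) reached 2 kb in CR 12m only and 3 (9.38%) in SD 12m only. The insulin receptor gene Insr had 23.6 kb, the transcription factor gene Cux2 2000 bp, Igfbp1 1800 bp and Foxo3 1400 bp.

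The lists of immune, other cell type and developmental genes had shares of genes close to the background or below it. By bases the inflammatory list stood above it, since members made up 6.58% of its bins quiescent in both SD groups and bins gained in SD 12m only made up 2.29% of those quiescent in SD 3m and CR 12m, against 1.79% and 0.885% over the autosomes. The member share by bases was 1.37% for markers of other liver cells and 0.754% for developmental factors. Of 47 interferon and inflammatory genes, 6 (12.8%) reached 2 kb in CR 12m only and 5 (10.6%) in SD 12m only, and the first 4 were Crp (13.4 kb), Nfkb2 (7.80 kb), Tlr2 (7.60 kb) and Apcs (6.60 kb). Crp and Apcs encode acute phase proteins made by hepatocytes. Of 55 genes that mark other liver cells, 3 (5.45%) and 4 (7.27%) did, with Clec4g of sinusoidal endothelium at 9.80 kb, Adgre1 of macrophages at 7.60 kb, Csf1r at 2.40 kb and Ehd3 at 1400 bp. Of 75 developmental transcription factors, 6 (8.0%) and 3 (4.0%) did, led by Dlx1 (6.80 kb), Gbx2 (5.40 kb), Phox2a (3600 bp) and Myf5 (3.00 kb).

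**Figure D5:**
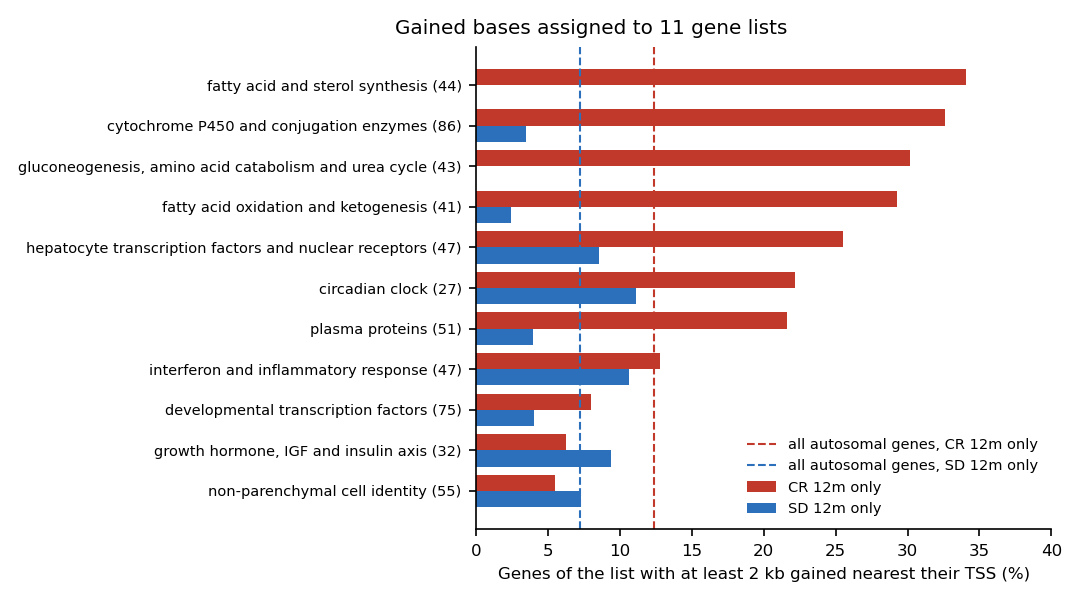
Percent of the matched genes of 11 lists (number in brackets) with at least 2 kb nearest their TSS gained in CR 12m only (red) or SD 12m only (blue), with dashed lines at 12.4% and 7.25% for all autosomal genes. The 4 metabolic lists of lipid synthesis, P450 enzymes, gluconeogenesis and fatty acid oxidation reach 29.3 to 34.1% in red and at most 3.49% in blue. Bins gained in both 12-month groups are counted in neither colour.

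Liver is a mixture of cells, so a state can be read from more cells of a type or from a stronger mark in each cell, which cannot be told apart in bulk tissue. The TSS of all 5 hepatocyte markers (Alb, Apoa1, Ttr, Serpina1b and Fgb) were in states 1 to 5 in each group. Of 10 markers of Kupffer cells, sinusoidal endothelium, stellate cells, bile duct and lymphocytes, 3, 2 and 4 were in states 1 to 5, by group. Clec4g and Krt19 were in state 4 in CR 12m and in no state from 1 to 5 in the SD groups. Stab2, like Clec4g a marker of sinusoidal endothelium, was in state 4 in SD 3m and CR 12m, and both were in state 7 in SD 12m. Cd79a was in state 4 in every group, and Epcam was in state 4 in both SD groups and in state 8 in CR 12m. Clec4f, Cd5l, Lrat, Reln and Cd3e were outside states 1 to 5 in every group, as were the non-liver genes Pax6 and Neurod1. The part of cell composition in the gains was not tested.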

How the data were processed

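Histone H3 marks were profiled by ChIP-seq in 108 libraries of 31 mouse livers. The authors aligned reads to mm10 with BWA 0.6.2-r126 and SAMtools 0.1.18, removed poorly mapped reads and duplicates, merged the libraries of each group and mark, and ran ChromHMM with 8 states. They deposited 1 state label per 200 bp bin, which is neither a count nor a signal and does not give depth. The depth per sample was not analysed here.

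The labels of 3 groups were used without a filter. The last bin of all 20 chromosomes was the last whole bin of GRCm38.p6, whose curated RefSeq transcripts gave genes, exons and TSS (1 per gene, that of the longest transcript). Bins with unassembled bases were left out of composition and motif shares. Windows of 1 Mb with at least 80% assembled bins were used. Computation used Python 3.11.15, numpy 2.4.6, scipy 1.17.1 and matplotlib 3.10.9. The functions were tested on 200000 simulated bins with 3964 planted stretches and missed 0 of the planted bins.

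No test was made, as each group has 1 segmentation. The members, gene lists and alternatives were chosen with earlier results of these data known. Named were the 10 longest stretches, the 20 genes with most member bases, the 10 longest stretches over a TSS, 4 genes per list and the 5 densest windows; 1 gene that the rule names is not reported here. Alternatives concerned stretch length, distance from SD enhancer states, the gained states, 1 kb windows, chromosome X, merging of gaps and the TSS set. Chromosome X is outside the rule. SD 6m was not analysed here.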

Additional observations from a re-analysis of the deposited data

How the results depend on the processing

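The bases gained in CR 12m only exceeded those gained in SD 12m only under every alternative tried for that ratio. The member share of bins quiescent in both SD groups (1.79%), that ratio (1.69), the share in state 4 (98.0%), the share of stretches next to an SD 12m enhancer state (61.0%) and the share within 2 kb of a TSS (3.73%) were recomputed in turn. With stretches of at least 1 kb, the member share was 1.66%, the ratio 1.79 and the neighbour share 63.9%. Without bins within 1 kb of SD enhancer states, the member share was 0.988%, the state 4 share 98.3% and the TSS share 3.59%, and the neighbour share was 0 by construction; no ratio could be formed, since bins gained in SD 12m are themselves in these states. With state 5 also counted as gained, the values in the same order were 2.16%, 1.85, 81.3%, 58.1% and 3.47%. With 1 kb windows, the state 4 share was 97.8% and the neighbour share 69.6%. With chromosome X, the member share was 1.72%, the ratio 1.72 and the TSS share 3.86%. The TSS share was 4.10% with all curated transcripts and 2.70% with protein-coding genes. Merging gaps moved no value beyond its Wilson limits. Of alternatives chosen after seeing the data, leaving out bins within 1 kb of SD 3m enhancer states gave a member share of 1.31% and a ratio of 1.83. The ratio was 2.44 in the fifth of windows richest in GC and 1.36 without them. No paired analysis was possible because each group has 1 segmentation of merged libraries. The same reason leaves the variation among mice unmeasured, and the number of libraries, the depth and the binarization behind a label could not be varied.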

Other observations

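Chromosome X, which the rule leaves out, held 2159 bins in 222 stretches that were quiescent in both SD groups and in state 3 or 4 in CR 12m, and 246 bins in 36 stretches gained in SD 12m only. The ratio of 8.78 lay above that of every autosome, the highest of which was 3.47 on chromosome 7. The bins gained in CR 12m only made up 0.586% of the bins quiescent in both SD groups there, below the 0.829% of the lowest autosome. The bins gained in SD 12m only made up 0.0492%, and 970 bins were gained in both groups. Of the bins on chromosome X gained in CR 12m only, 98.5% were in state 4.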
